A study of Mus musculus with 23 samples.

Results

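The clustered histone genes are the genes whose symbols start with Hist1h, Hist2h, Hist3h or Hist4h. They were taken by symbol, without regard to capitals, from 3 tables of RNA-seq values of sorted mouse mammary cells. They came to 69 genes of the 24918 distinct symbols in the tables. By their symbols they fell into 6 H1, 19 H2A, 19 H2B, 12 H3 and 13 H4 genes. The H2B genes include Hist3h2bb-ps and the H2A genes Hist1h2al, for which no coding transcript was found. The Hist1 cluster on chromosome 13 holds 55 of them, Hist2 on chromosome 3 holds 10, Hist3 on chromosome 11 holds 3, and Hist4 on chromosome 6 holds 1.

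H2A, H2B, H3 and H4 form the core around which DNA is wound, and H1 binds the DNA between cores. Most clustered histone genes are replication-dependent: their mRNA is made in S phase, when new DNA needs new nucleosomes, and it ends in a short stem-loop bound by the protein SLBP instead of a poly(A) tail. Some of them are also known to give polyadenylated mRNA from the same gene, among them Hist1h1c, Hist1h2bc, Hist2h2be and Hist4h4. The libraries were made from polyA RNA, so the values below count transcripts that were captured through a tail or an A-rich stretch. They do not measure the stem-loop form, and a change of level cannot be told apart from a change in the share of transcripts that carry a tail.

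The normal cells came from C57BL6J mice: fMaSC, the fetal mammary stem cells, taken at embryonic day 18, and from adults the basal, luminal progenitor and mature luminal populations, with 2 libraries each. PY230, a mouse mammary tumour line, was grown as transplants in syngeneic C57BL6J mice and sorted into luminal cells with high SOX10, luminal cells with low SOX10 and basal cells with high SOX10, again with 2 libraries each. C3-1-TAg mice of the FVB strain carry the SV40 T antigen, which binds p53 and the RB proteins, and their spontaneous tumours gave 5 libraries of SOX10 high and 4 of SOX10 low cells, which the titles call basal. Each library came from about 2000 sorted cells. Neither the ages of the adults nor the sort markers are given in the sources used here. Replicates are described as biological in the design text, but the labels tie no library to an animal. A lower value in sorted bulk RNA cannot be told apart from fewer cells that make the transcript. Values are RPKM, which scales reads by gene length and library size, so levels are per gene length. The tables were made separately, so levels are tested only within one, and values given from several tables are side by side without a test.

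In GENCODE M21 transcripts (GRCm38), a stem-loop with arms of 6 bases and a loop of 4 was found past the stop codon of 44 of the 69 genes. For many of the others, such as Hist1h2ak and Hist1h3h, the shortest annotated coding transcript ends at the stop codon. A stem-loop not found can thus be a gap in the annotation. The search asked for fully paired arms, GG at the start and TT opening the loop, so the forms below are alike there by design. Capitals mark the paired arms, U is written as T, and the number of genes with each form follows it in the next sentences.
stem-loop form A: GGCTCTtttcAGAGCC
stem-loop form B: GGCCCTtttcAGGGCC
stem-loop form C: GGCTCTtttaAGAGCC
Form A stood in 26 genes, among them Hist1h2ab, Hist1h1c and Hist3h2a. Form B stood in 7 genes, including the H4 genes Hist1h4d and Hist4h4. Form C stood in 6 genes, including Hist1h2bb. The remaining 5 genes with a stem-loop had other bases in the arms or the loop. Where the annotation runs on past the stem-loop it can hold a poly(A) signal: transcripts of Hist1h1c continued for 840 bases beyond it, those of Hist1h4d for 770 and those of Hist3h2a for 1643, and a signal (AATAAA or ATTAAA) was found in each. Transcripts of Hist1h2ab ended 11 bases and those of Hist1h2bb 23 bases after the stem-loop, with no such signal.

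Promoters of 61 genes were matched in RefSeq (GRCm38.p6), as 300 bases around the start of each gene. Shown are one gene each of the fetal, the mature luminal and the C3-1-TAg pattern described below. Capitals mark 3 motifs found on either strand. They are the TATA box TATAAA, the CCAAT box and the octamer ATTTGCAT. On the other strand the CCAAT box reads ATTGG. The octamer there reads ATGCAAAT.
Hist1h2ab, chr13:23750838-23751137, plus strand: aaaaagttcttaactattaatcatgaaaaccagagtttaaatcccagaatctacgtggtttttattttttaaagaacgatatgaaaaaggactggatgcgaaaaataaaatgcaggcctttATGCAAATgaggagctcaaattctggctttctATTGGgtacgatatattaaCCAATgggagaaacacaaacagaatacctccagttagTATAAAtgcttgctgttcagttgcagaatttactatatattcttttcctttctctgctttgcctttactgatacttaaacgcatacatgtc
Hist1h1c, chr13:23738557-23738856, plus strand: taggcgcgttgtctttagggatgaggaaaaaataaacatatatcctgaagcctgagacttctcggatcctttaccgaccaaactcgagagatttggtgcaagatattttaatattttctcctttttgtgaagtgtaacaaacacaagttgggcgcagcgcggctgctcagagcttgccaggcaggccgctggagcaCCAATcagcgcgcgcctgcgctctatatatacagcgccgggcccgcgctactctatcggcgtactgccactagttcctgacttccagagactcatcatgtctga
Hist1h2bb, chr13:23746484-23746783, plus strand: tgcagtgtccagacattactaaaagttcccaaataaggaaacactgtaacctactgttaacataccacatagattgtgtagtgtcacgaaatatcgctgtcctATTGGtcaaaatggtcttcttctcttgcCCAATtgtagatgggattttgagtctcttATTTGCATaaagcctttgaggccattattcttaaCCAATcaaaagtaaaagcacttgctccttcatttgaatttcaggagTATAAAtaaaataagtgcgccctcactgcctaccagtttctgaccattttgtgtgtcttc
TATAAA stood in 57.4% of the histone promoters and in 14.2% of the 27025 promoters in RefSeq's table. CCAAT stood in 85.2% against 37.9%: all H1, H2A, H2B and H3 promoters held it, but only 25% of the H4 promoters did. The octamer, which is bound by OCT1 in H2B genes, stood in 41.2% of the H2A and 37.5% of the H2B promoters, in none of the H1, H3 or H4 promoters, and in 1.8% of all promoters. The Hist1h2ab and Hist1h2bb promoters hold all 3 motifs, while that of Hist1h1c holds CCAAT only. These matches describe the letters of the windows and not binding.

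In the normal cells' table, 68 of the genes were listed, 54 had a mean of at least 1 RPKM over the 8 libraries, and 1 (Hist1h1t, the testis H1) was at 0 throughout. In the table of PY230, 69 were listed, 14 reached a mean of 1 RPKM and 7 were at 0 throughout. In the table of C3-1-TAg, 68 were listed, 10 reached that mean and 9 were at 0 throughout. Of all genes, 25%, 20.3% and 18.9% were at 0 throughout in the 3 tables. Genes with at least 1 RPKM in 2 libraries, or in 4 for C3-1-TAg, were tested: 57, 16 and 10 of the histone genes. The number of genes at 1 RPKM or more was between 10056 and 12504 in each library of the series, read totals are unknown, and precision rests on the spread between libraries.

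Fetal cells held most of the histone transcripts of the normal table. Summed over the 68 genes, the 2 fMaSC libraries had 898 and 964 RPKM, the mature luminal libraries 453 and 459, the luminal progenitor libraries 187 and 157, and the basal libraries 230 and 84.8. The fMaSC libraries lay above all adult ones, and the 2 basal libraries differed from each other more than those of any other group did. H2A genes made up most of the fetal sum, at 492 and 636 RPKM. The classes did not share one order of populations: fMaSC had the highest sums of H2A, H3 and H4, while mature luminal cells had the highest sums of H2B.

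**Figure D1:**
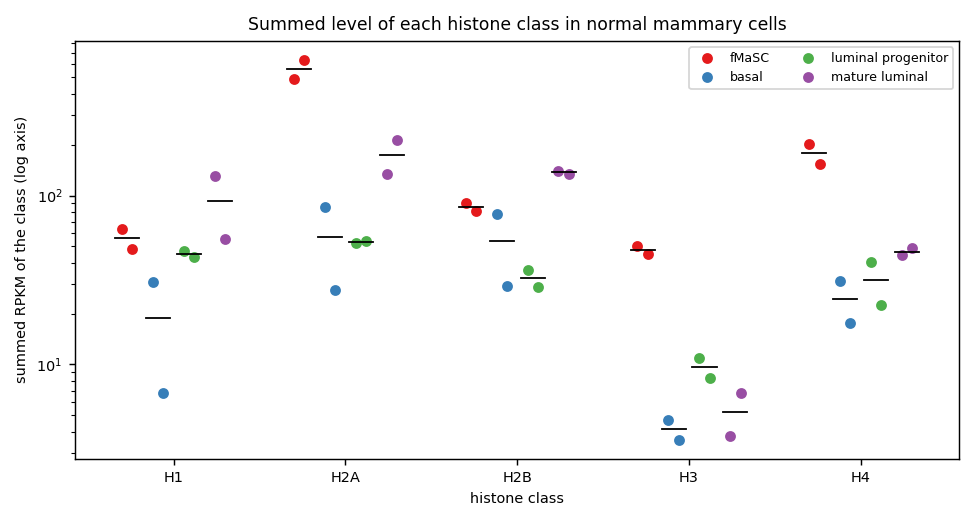
Summed RPKM of each histone class (log axis) in the 8 normal libraries; points are libraries and bars are means of 2. H2A, H3 and H4 sums were highest in both fMaSC libraries, and H2B sums were highest in both mature luminal libraries.

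Against adult basal cells, 43 of the 57 tested histone genes were higher in fMaSC and 0 lower (limma, adjusted p under 0.05), where 36.9% of all 12553 tested genes were higher and 23.4% lower (60.3% in all). Against luminal progenitors 44 were higher and 0 lower, with 35.5% and 15% of all genes (50.6% in all). Against mature luminal cells 36 were higher and 8 lower, with 41.7% and 14.7% of all genes (56.4% in all). The median log2 fold change of the tested histone genes was 1.65, 1.47 and 1.40 in the 3 comparisons, and that of all tested genes 0.27, 0.39 and 0.53. With quantile scaling, which moved the median of all genes to between -0.04 and 0, the counts were 37 higher and 0 lower, 33 and 1, and 27 and 12. These counts and the histone medians are not independent of the filter: 23 of the 57 reached 1 RPKM in 2 libraries only through fMaSC. The 23 had to be higher in fMaSC, and no median was computed without them. Of the other 34, 20 were higher than in basal cells (33.5% of the 11596 genes that pass without fMaSC), 21 higher than in luminal progenitors (31.8%), and 13 higher and 8 lower than in mature luminal cells (38.3% and 15.9%). With either fMaSC library left out only 40 histone genes were tested; without replicate 1 the counts called fell to 16, 15 and 16, and without replicate 2 to 21, 18 and 21.

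The H2A genes of the Hist1 cluster gave the largest differences. Hist1h2ap measured 101 and 341 RPKM in fMaSC, 3.52 and 3.19 in basal cells, 1.89 and 4.83 in luminal progenitor cells and 3.06 and 1.60 in mature luminal cells. The fetal libraries differed from each other by over 3-fold and still lay far above the 6 adult ones. The log2 fold changes were 5.43, 5.51 and 5.85 (limma, SE 0.59 each, adjusted p = 0.00028, 0.000302 and 0.000181). Hist1h2ap shares 403 of its 433 windows of 50 bases with Hist1h2ao, so reads cannot be divided between them with certainty. Summed, the pair measured 156 and 371 RPKM in fMaSC and between 2.35 and 5.30 in the adult libraries, so the difference did not depend on the division.

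Hist1h2ab, for which 42.0% of such windows are found in no other gene, measured 36.0 and 25.9 RPKM in fMaSC. It was 0.71 and 0.33 in basal cells, 1.10 and 0.83 in luminal progenitor cells and 0.99 and 0.51 in mature luminal cells. Hist1h2ae, with 56.8% of its windows unique, measured 49.9 and 37.7 RPKM in fMaSC and between 0.19 and 1.64 in the adult libraries. The adult values of these H2A genes were near or below 1 RPKM in every population. All 12 tested Hist1 H2A genes were higher in fMaSC in each of the 3 comparisons, with a median log2 fold change of 4.01, 4.12 and 4.12, and 0 of the 12 were called in the 3 comparisons between adult populations. 9 of these 12 passed the filter only through fMaSC. On the log2(RPKM + 1) scale the fold changes of genes near 0 in adult cells are understated.

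H3 and H4 genes followed at lower levels. Hist1h3c, the H3 gene with the highest mean, measured 10.4 and 8.68 RPKM in fMaSC and between 0.07 and 0.77 in the adult libraries. All 10 tested H3 genes were higher in fMaSC than in basal cells, 9 of 10 than in luminal progenitors and 10 of 10 than in mature luminal cells, but 7 of the 10 had passed the filter only through fMaSC. The exception was Hist1h3f, at 4.09 and 4.26 RPKM in fMaSC and 3.25 and 2.26 in luminal progenitors (log2 fold change 0.48, limma, adjusted p = 0.16). Hist1h4d had the highest mean of the H4 genes, with 109 and 88.1 RPKM in fMaSC, 10.7 and 7.40 in basal cells, 19.5 and 13.0 in luminal progenitor cells and 18.0 and 13.4 in mature luminal cells. Hist1h4d stayed above 7 RPKM in all adult libraries, where Hist1h2ab was near or below 1. Of 11 tested H4 genes, 3 of which passed only through fMaSC, 10, 10 and 9 were higher in fMaSC. The shares of all tested genes that were higher were 36.9%, 35.5% and 41.7%.

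H1 and H2B genes did not move as classes. Hist1h1b, which encodes the replication-dependent linker histone H1.5, was at 33.5 and 25.4 RPKM in fMaSC and between 0.59 and 2.81 in the adult libraries, with the groups well apart. Hist1h1e, which encodes H1.4, was at 12.4 and 9.24 RPKM in fMaSC, 13.8 and 12.4 in luminal progenitors and 14.7 and 7.31 in mature luminal cells. The mature luminal values overlapped both other groups, and both progenitor libraries lay just above the fetal ones. It was lower in basal cells, at 4.45 and 3.05 (log2 fold change of fMaSC against basal 1.32, limma, adjusted p = 0.0129). Among 14 tested H2B genes, 3 of which passed the filter only through fMaSC, 6 were higher in fMaSC than in basal cells. In fMaSC 9 were higher than in luminal progenitors, and 3 were higher and 4 lower than in mature luminal cells. Of all tested genes 36.9%, 35.5% and 41.7% were higher in the same order, and 14.7% were lower than in mature luminal cells. Hist3h2ba, an H2B gene outside the large cluster that passed only through fMaSC, was at 11.1 and 9.25 RPKM against 0 to 0.97 in the adult libraries.

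Across the 57 tested genes, both fMaSC libraries lay above all 6 adult libraries for 39, where 35.8% of all tested genes did so. The 23 genes that passed the filter only through fMaSC are all among them; of the other 34 it was 16, or 47.1%, against 32.2% of the 11596 genes that pass without fMaSC. The 39 were 10 of 10 H3, 10 of 11 H4, 13 of 17 H2A, 4 of 14 H2B and 2 of 5 H1 genes.

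**Figure D2:**
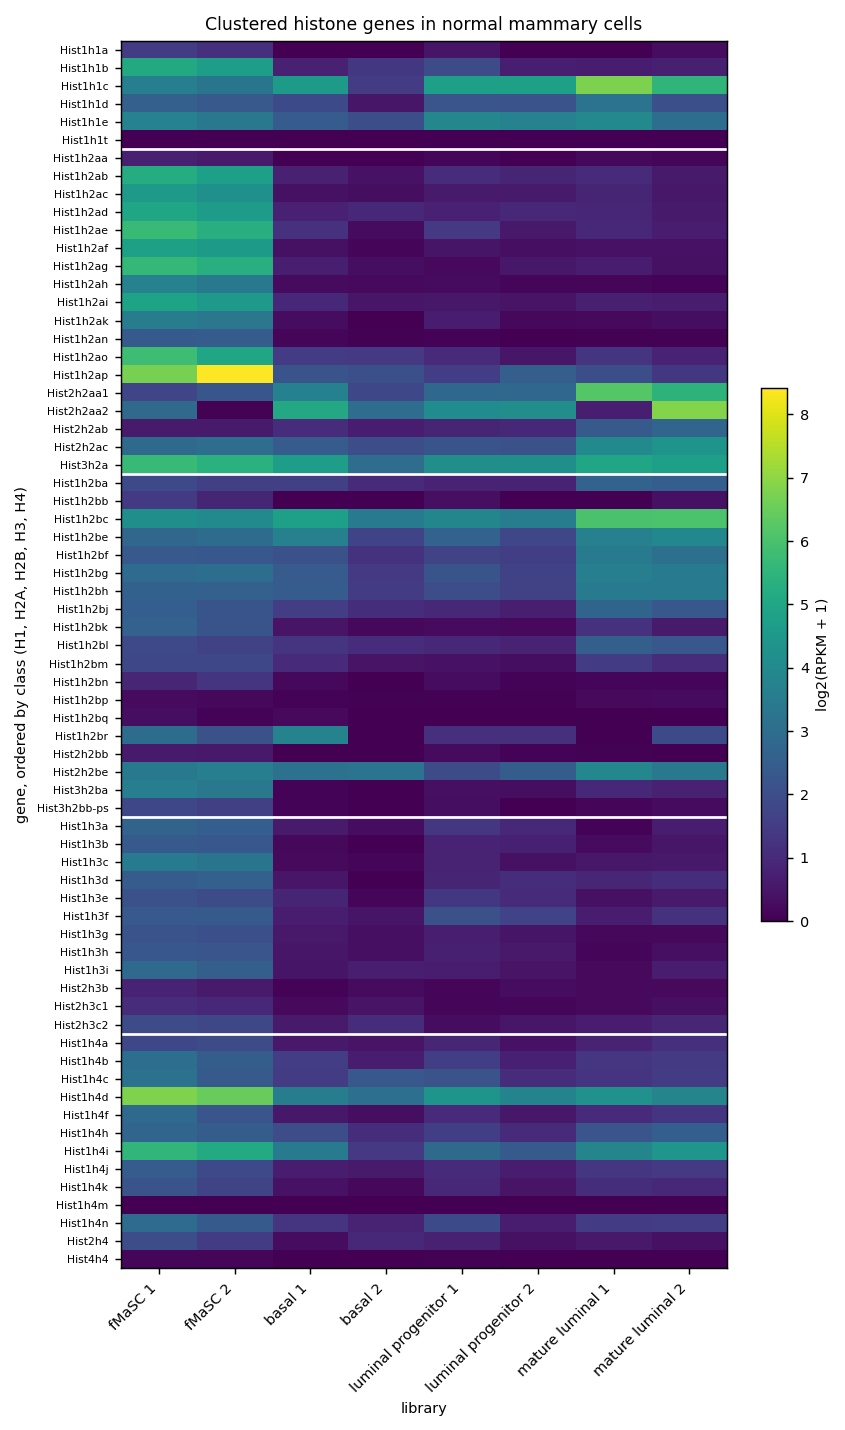
log2(RPKM + 1) of the 68 histone genes (rows, by class) in the 8 normal libraries (columns). Most Hist1 H2A, H3 and H4 rows are brighter in both fMaSC libraries than in the adult ones. Hist1h1c, Hist1h2bc and Hist2h2ac are brightest in both mature luminal libraries.

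The genes that act with histones in S phase were also higher in fMaSC. All 22 genes of a DNA replication list, such as the helicase subunit Mcm5 at 62.0 and 60.6 RPKM against 0.40 to 1.85 in adult libraries, were higher in each of the 3 comparisons. So were all 22 genes of a mitosis list, such as the mitotic kinase Cdk1. The median replication gene was at 36.8 and 40.01 RPKM in fMaSC and between 1.43 and 2.57 in the adult libraries. Of 19 histone chaperones 12, 13 and 16 were higher, among them Asf1b, which hands H3 and H4 to the replication fork, at 45.3 and 38.6 RPKM against 0 to 1.38. Subunits of chromatin assembly factor 1 were among them, Chaf1a with a log2 fold change of 3.43 against basal cells and Chaf1b with 2.04. In the 3 comparisons 36.9%, 35.5% and 41.7% of all tested genes were higher.

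Genes that process histone mRNA differed less. Of 17 tested, 6 were higher and 2 lower than in basal cells, 7 higher than in luminal progenitors and 10 higher than in mature luminal cells. Among all tested genes 36.9%, 35.5% and 41.7% were higher in the same order, and 23.4% were lower than in basal cells. The counts higher than in basal cells and luminal progenitors were near these shares. Slbp, which binds the stem-loops shown above, measured 141 and 140 RPKM in fMaSC, 92.7 and 80.8 in basal cells, 109 and 62.6 in luminal progenitor cells and 49.0 and 34.6 in mature luminal cells. It was higher than in mature luminal cells (1.74, limma, adjusted p = 0.00185), with 0.69 (adjusted p = 0.075) and 0.75 (adjusted p = 0.0647) against the other 2 populations. The largest difference was that of Cpsf3, the nuclease that cuts pre-mRNA 3′ ends (3.6 against basal cells, limma, adjusted p = 3.8e-05). Npat, which activates histone transcription in S phase, was lower in fMaSC than in basal cells (-1.39, limma, adjusted p = 0.00184).

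Replacement histones can also be made outside S phase, most of them from polyadenylated mRNA. They too were mostly higher: 9, 8 and 7 of 10 tested, with 1 lower than in mature luminal cells. Among all tested genes 36.9%, 35.5% and 41.7% were higher, and 14.7% were lower than in mature luminal cells. The centromeric H3 gene Cenpa led, at 157 and 138 RPKM in fMaSC and 0.40 to 5.45 in adult libraries. H2afz, which encodes H2A.Z, measured 1498 and 1439 RPKM in fMaSC, 534 and 456 in basal cells, 274 and 324 in luminal progenitor cells and 148 and 128 in mature luminal cells.

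Markers of other cell types moved with fMaSC. Fat markers summed to 99.6 and 110 RPKM there and to at most 0.54 in adult libraries, red cell markers to 186 and 269 against at most 9.17, fibroblast markers to 40.7 and 46.9 against at most 9.48, and pigment and Schwann cell markers to 34.7 and 42.1 against at most 4.23. Of the defining genes, Plin1 was at 0.86 and 1.59 RPKM in fMaSC and at 0 in all adult libraries, and the leukocyte gene Ptprc was at 0 in both fMaSC libraries. Their part in the histone levels was not tested. The fetal cells carried Krt14 at 107 and 112 RPKM and Elf5 at 8.87 and 6.68, a basal and a luminal progenitor marker.

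Among adult populations, mature luminal cells exceeded luminal progenitors for 12 of the 57 tested genes and lay below for 1, where 8.63% of all tested genes were higher and 13.4% lower. 9 of the 12 were H2B genes, of 14 tested, and the other 3 were the Hist2 genes Hist2h2aa1, Hist2h2ab and Hist2h2ac. Hist2h2ab passed the filter only through the mature luminal libraries, and without it 11 of 56 were higher. Hist1h2bc measured 63.6 and 64.9 RPKM in the mature luminal libraries, 13.6 and 10.97 in those of luminal progenitors, 26.3 and 10.3 in basal cells and 17.3 and 15.0 in fMaSC. The mature luminal libraries stood above all 6 others (against luminal progenitors 2.30, SE 0.38, limma, adjusted p = 0.00669). Hist2h2ac measured 15.3 and 19.3 RPKM in mature luminal cells and between 2.99 and 7.12 in the other 6 libraries. Leaving out replicate 1 of either population gave 6 calls and replicate 2 gave 7.

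Hist1h1c, which encodes H1.2 and is one of the genes known to give polyadenylated mRNA, measured 108 and 44.1 RPKM in mature luminal cells. It was 26.0 and 26.9 in luminal progenitors, 22.8 and 1.76 in basal cells and 11.1 and 8.64 in fMaSC. Both mature luminal libraries were highest, but they differed from each other by more than 2-fold, as did the basal ones by more than 10-fold. It was called against basal cells and fMaSC (limma, log2 fold change of basal against mature luminal cells -3.11, adjusted p = 0.0246, and of fMaSC against mature luminal cells -2.70, adjusted p = 0.0359) but not against luminal progenitors (1.35, adjusted p = 0.334). Both mature luminal libraries lay above the 6 other libraries for 10 of the 57 genes, against 10.0% of all tested genes. They were Hist1h1c, 6 H2B and 3 Hist2 H2A genes, and no H3 or H4 gene.

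Hist2h2aa1 and Hist2h2aa2 share all their windows with other gene models (Gm20633 and Gm20632) and were divided unevenly between libraries, with Hist2h2aa2 at 0.65 and 114 RPKM in the 2 mature luminal libraries. Summed, the pair measured 73.0 and 156 RPKM there, 44.7 and 9.497 in basal cells, 22.2 and 23.2 in luminal progenitor cells and 8.96 and 3.76 in fMaSC. The sum kept mature luminal cells on top, and the fold change of either gene alone is uncertain.

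Basal cells lay below mature luminal cells for 16 of the 57 genes and above for 0, where 19.8% of all tested genes were lower and 28.8% higher (48.6% in all). 8 of the 16 were H2B genes. Without mature luminal replicate 1 the count was 7. Basal cells and luminal progenitors differed for 4 genes, 1 higher and 3 lower, where 21% and 14.5% of all tested genes did. Hist2h2be was higher in basal cells, at 7.89 and 8.13 RPKM against 2.86 and 4.62. Hist1h1e, Hist1h3f and Hist1h3b were lower. Without basal replicate 1 the count was 14, without basal replicate 2 it was 7, and without luminal progenitor replicate 1 or 2 it was 1 or 2. In these adult comparisons the replication list had 1 higher and 2 lower (mature luminal against luminal progenitor), 7 higher and 1 lower (basal against mature luminal) and 3 higher and 0 lower genes (basal against luminal progenitor) of 22.

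In PY230 tumour cells 2 genes made up most of the histone signal. Hist1h2bc measured 101 and 152 RPKM in luminal SOX10 high cells, 191 and 194 in luminal SOX10 low cells and 142 and 215 in basal SOX10 high cells. Both SOX10 low libraries lay above both luminal SOX10 high ones, the basal libraries overlapped both luminal groups' range, and the gene was not called in any of the 3 comparisons (luminal SOX10 high against low -0.63, limma, adjusted p = 0.131). Hist1h1c measured 81.0 and 100 RPKM in luminal SOX10 high, 160 and 190 in luminal SOX10 low and 75.8 and 74.7 in basal SOX10 high cells. The SOX10 low libraries stood above all 4 others. Next came Hist3h2a, at 10.4 and 16.6, 28.7 and 36.0, and 5.13 and 10.3 RPKM in the same order.

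The Hist1 H2A and H3 genes were low there. No Hist1 H2A gene was above 2.26 RPKM (Hist1h2ad) and no Hist1 H3 gene above 1.90 RPKM (Hist1h3d) in any PY230 library. In C3-1-TAg libraries the highest such values were 0.73 and 1.10 RPKM. Replication genes were present in both tables, with a median of 9.36 to 18.2 RPKM in PY230 and 34.4 to 52.6 RPKM in C3-1-TAg libraries. Slbp measured between 10.6 and 19.4 RPKM in PY230 and between 39.6 and 110 RPKM in C3-1-TAg libraries. The tables may also treat reads shared between genes differently, which was not tested: H2afz, at 128 RPKM or more in every normal library, was between 2.32 and 5.49 RPKM in PY230 and between 7.54 and 33.6 RPKM in C3-1-TAg libraries.

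Luminal SOX10 high cells had 4 of 16 tested histone genes lower than luminal SOX10 low cells and 0 higher, where 10% of all 13136 tested genes were lower and 12.6% higher. The 4 were Hist3h2a (-1.23), Hist3h2ba (-0.96), Hist1h1c (-0.94, SE 0.16, limma, adjusted p = 0.0129) and Hist1h2ad (-0.93). Hist1h2ad passed the filter only through the SOX10 low libraries, and without it 3 of 15 were lower. Hist2h2be measured 2.22 and 6.40 against 12.8 and 10.0 RPKM and just missed the threshold (-1.34, limma, adjusted p = 0.0522). The count was 1 without SOX10 high replicate 1 or SOX10 low replicate 1, 0 without SOX10 low replicate 2 and 7 without SOX10 high replicate 2. Mature luminal markers were higher in SOX10 low cells, with 2 of 5 called and a sum of 1271 and 1672 RPKM against 332 and 590. Of 5 luminal progenitor markers 4 were called higher in SOX10 high cells. The 5 summed to 834 to 1828 against 143 to 148 RPKM, and Csn3 made up most of the SOX10 high sums (1443 and 567 RPKM). Aldh1a3, the marker not called, went the other way, at 3.26 and 7.09 against 12.9 and 9.93 RPKM. Also higher in SOX10 high cells were 2 of 6 basal markers and 2 of 2 tested immune markers. Their part in the histone differences was not tested. In the replication list 1 gene was higher and 1 lower of 22.

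Basal SOX10 high cells had 1 gene higher and 1 lower than luminal SOX10 high cells, where 13.8% of all tested genes were higher and 28.2% lower. Hist3h2ba fell from 5.33 and 6.39 to 0.33 and 0.73 RPKM (-2.17, limma, adjusted p = 0.000612), with the groups apart. Hist1h1b was higher, at 2.31 and 2.69 against 0.72 and 1.22 RPKM (0.84, limma, adjusted p = 0.022), while 14 of 22 replication and 15 of 22 mitosis genes were lower in the same comparison. All 6 basal markers were higher and all 5 luminal progenitor and 5 mature luminal markers lower in the basal cells, and their part in the histone differences was not tested. Without basal replicate 1 the count was 1, with no gene higher, and without basal replicate 2 or luminal SOX10 high replicate 1 no gene was higher either. Against luminal SOX10 low cells 6 genes were lower and 1 higher, where 33.4% and 21.8% of all tested genes were. Hist1h2ad, 1 of the 6, passed the filter only through the SOX10 low libraries, and without it 5 of 15 were lower. Hist3h2ba (-3.13), Hist2h2be (-2.23), Hist3h2a (-1.99) and Hist1h1c (-1.20) were the lower ones with the largest changes, and Hist1h1b (0.84) the higher one. In that comparison, too, 6 of 6 basal markers were higher and 5 of 5 mature luminal markers lower. The counts of the last comparison were 4 without basal replicate 1 or SOX10 low replicate 1.

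**Figure D3:**
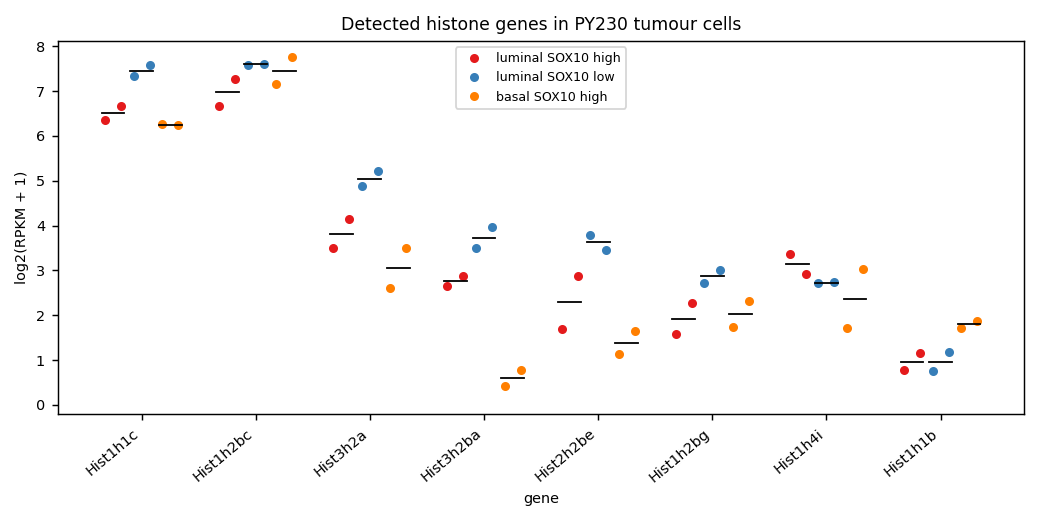
log2(RPKM + 1) of 8 histone genes in the 6 PY230 libraries; points are libraries and bars are means of 2. Hist1h1c, Hist3h2a, Hist3h2ba and Hist2h2be are highest in both luminal SOX10 low libraries, and the basal libraries of Hist1h2bc span the values of both luminal SOX10 low libraries.

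In C3-1-TAg tumour cells 5 H2B genes were higher in SOX10 high cells. They were 5 of the 10 tested histone genes and also the only 5 genes called among all 11948 tested (limma, adjusted p = 0.0175 each), so that 0.0418% of all genes were higher and 0% lower. Hist1h2bb measured 97.1, 103, 212, 75.0 and 97.5 RPKM in the 5 SOX10 high and 14.5, 0.81, 1.75 and 0.52 RPKM in the 4 SOX10 low libraries. Hist1h2bm measured 76.9, 83.0, 196, 75.6 and 90.9 against 12.8, 0.41, 1.33 and 0.44 RPKM. Hist1h2bf measured 29.3, 22.6, 72.6, 30.5 and 36.1 against 4.50, 0, 0.50 and 0.10 RPKM. The same SOX10 high library, replicate 3, was highest for all 3 genes, the same SOX10 low library, replicate 1, was the highest of its group, and the groups did not overlap.

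The 2 Hist2 genes behaved alike. Hist2h2be measured 14.2, 13.4, 36.5, 12.9 and 18.4 against 2.71, 0.48, 1.14 and 1.11 RPKM. Hist2h2bb measured 12.9, 9.10, 32.3, 11.6 and 14.8 against 1.97, 1.34, 0.87 and 0.95 RPKM. The log2 differences were 5.07 for Hist1h2bb (SE 0.61), 5.11 for Hist1h2bm, 4.38 for Hist1h2bf, 3.06 for Hist2h2be and 2.80 for Hist2h2bb. An exact permutation test (two-sided, the smaller tail doubled) over the 126 splits gave p = 0.0159 for each, the smallest p it can give. Groups that do not overlap fix this p, and the 5 genes were picked from the same libraries, so it adds no support. For all 5 the SOX10 high libraries lay above all SOX10 low ones, as for 0.586% of all tested genes. All 5 passed the filter only through the SOX10 high libraries.

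The calls depended on single libraries. Without SOX10 high replicate 1, 4 or 5, or SOX10 low replicate 2, 3 or 4, the count was 0, without SOX10 high replicate 3 it was 2, and without SOX10 high replicate 2 or SOX10 low replicate 1 it stayed at 5. The log2 difference of Hist1h2bb was between 4.69 and 5.81 over these fits. Sox10 itself, by which the cells are named, measured 144, 91.9, 160, 158 and 164 RPKM in the SOX10 high and 40.9, 12.8, 31.5 and 2.10 RPKM in the SOX10 low libraries. SOX10 low replicate 1 thus had the most Sox10 and the most of 5 H2B transcripts in its group. It also had immune markers at a sum of 760 RPKM, where the other C3-1-TAg libraries had at most 91.8, and without it the difference of Hist1h2bb was 5.81.

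The proportions of the 5 genes were narrower in the SOX10 high than in the SOX10 low libraries for the Hist2 genes. In SOX10 high libraries Hist1h2bm was 0.79 to 1.01 times, Hist1h2bf 0.22 to 0.41 times, Hist2h2be 0.13 to 0.19 times and Hist2h2bb 0.089 to 0.155 times the level of Hist1h2bb. Sox10 was 0.75 to 2.10 times that level. In the SOX10 low libraries, where levels were low, Hist1h2bm was 0.51 to 0.88 times, Hist1h2bf 0 to 0.31 times, Hist2h2be 0.19 to 2.14 times and Hist2h2bb 0.14 to 1.82 times the level of Hist1h2bb. The coding sequences of Hist1h2bb and Hist1h2bm are 93.9% identical and share 86 windows of 50 bases. Hist2h2be shares no such window with Hist1h2bb, Hist1h2bm or Hist1h2bf, and all its windows are unique, while all windows of Hist2h2bb are shared with another gene model, Gm20628.

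Of the other 14 H2B genes only Hist1h2bc and Hist3h2ba were tested, and neither was called. Hist1h2bc, whose coding sequence is 98.4% identical to that of Hist1h2bf, measured between 11.5 and 39.5 RPKM in SOX10 high and between 11.6 and 36.4 RPKM in SOX10 low libraries (0.19, limma, adjusted p = 1). Hist1h1c measured between 7.45 and 33.2 against 10.4 and 31.5 RPKM (-0.58, adjusted p = 1). Hist1h4i, Hist3h2a and Hist3h2ba had differences between -0.10 and 0.57 and overlapped. Of the replication and mitosis lists 0 of 22 genes each were called by limma, and their medians overlapped. In the PY230 table Hist1h2bb was at most 1.71 RPKM, and Hist2h2be was lower in both luminal SOX10 high libraries than in both SOX10 low ones. As background, H2B fused to a fluorescent protein is a widely used nuclear reporter of promoter activity. The sources used here do not say how SOX10 was read in the sort, and whether transcripts of such a fusion were counted under these 5 genes was not tested.

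**Figure D4:**
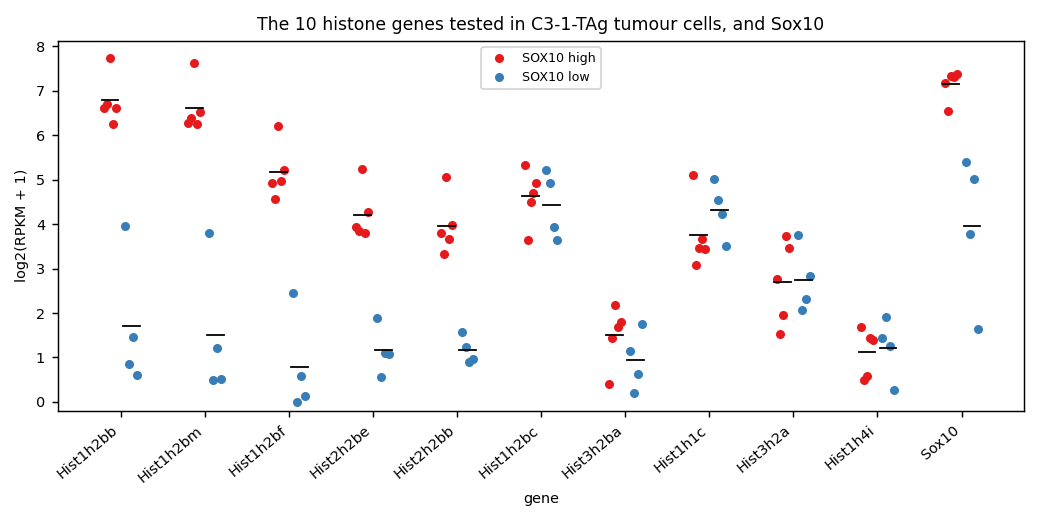
log2(RPKM + 1) of the 10 tested histone genes and Sox10 in the C3-1-TAg libraries; points are libraries and bars are group means (5 SOX10 high, 4 SOX10 low). Hist1h2bb, Hist1h2bm, Hist1h2bf, Hist2h2be and Hist2h2bb do not overlap between the groups, as Sox10 does not, and the other 5 do.

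How reads shared between genes were counted is not known, so the levels were set beside the unique part of each gene. The median histone gene had 45% of its windows of 50 bases, the shorter read length, in no other gene of GENCODE M21, with class medians of 98.85% for H1, 60.5% for H4, 50.3% for H2B, 38.05% for H3 and 32.4% for H2A. For 13 genes less than 10% was unique, and for 7 none was. Of these 13, 0 were at 0 in all normal libraries, 4 in all PY230 and 6 in all C3-1-TAg libraries. Of the 33 genes with at least 50% unique, 1 was at 0 throughout in each table. A mean of at least 1 RPKM was reached by 9 of the 13 in normal cells, by 0 in PY230 and by 1 in C3-1-TAg.

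Levels were also set beside the 3′ end, with no test. In PY230, of 22 genes whose transcripts run at least 100 bases past the stem-loop, 8 had a mean of at least 1 RPKM, against 3 of 22 with a shorter end and 3 of 25 with no stem-loop found. Many of these 25 are annotated only up to the stop codon, such as Hist1h2bl, so they are not a class without a stem-loop. The highest mean was 114 RPKM (Hist1h1c) in the first set 1.68 RPKM (Hist1h4h) in the second and 166 RPKM (Hist1h2bc) in the third. The counts were 18 and 19 of 22 in normal cells, and 4 and 3 in C3-1-TAg. Of the genes known to give polyadenylated mRNA, Hist1h1c, Hist1h2bc and Hist2h2be were detected in every table, while Hist4h4 stayed at or below 0.09 RPKM in normal cells, 0.31 in PY230 and 1.35 in C3-1-TAg.

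**Figure D5:**
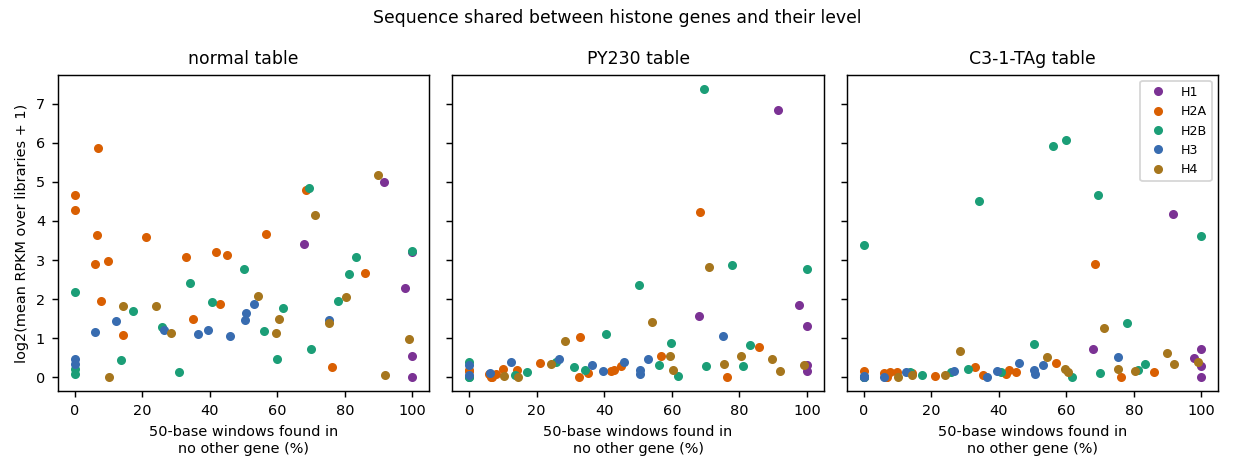
Mean level of each histone gene, as log2(mean RPKM + 1), against the percent of its 50-base windows found in no other gene, for the 3 tables; colours are classes. Genes under 10% reach high levels in the normal table (Hist1h2ap, mean 57.6 RPKM), but in the tumour tables only Hist2h2bb exceeds 1 RPKM, in C3-1-TAg.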

How the data were processed

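RNA of 23 libraries in 9 groups was read as 3 tables. Per the labels' protocols, polyA RNA of about 2000 sorted cells was amplified by SmartSeq2 (18 cycles), made into Nextera XT libraries (10 cycles) and read from one end for 50 or 75 bases, without molecular identifiers. The submitters' processing notes name FastQC, HISAT2 2.0.5, StringTie 1.3.1c and mm9; how reads shared between genes were treated was not given in the sources used here. Values were deposited as RPKM, per the file headers, and leave read depth unknown. In the C3-1-TAg table all values above 0 exceeded 2, and 2 was taken off them; symbols were matched without regard to capitals.

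Genes with at least 1 RPKM in 2 libraries (4 for C3-1-TAg) were tested on log2(RPKM + 1) with limma 3.58.1 (R 4.3.3; trended variance, all groups of a table in one fit, Benjamini-Hochberg over all tested genes, adjusted p under 0.05, two-sided). Fold changes are on that scale, which understates changes of low genes. The fit was tested on simulated data. Permutation tests used scipy 1.17.1. Genes named are, per table and class, up to 3 with the highest mean, per comparison up to 6 called genes with the largest change, 4 known to give polyadenylated mRNA, and up to 4 called genes per list; others were named after their values were seen. The members and lists were chosen with earlier results of these data known. P-values measure the spread between libraries, which may be partly technical. Alternatives were another pseudocount, no filter, quantile and median-of-ratios scaling, a replicate block, leaving out each library and, for C3-1-TAg, the values as deposited.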

Additional observations from a re-analysis of the deposited data

Results flagged for a closer look

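In the C3-1-TAg SOX10 high group 1 library lay far from the other 4 for several genes. Replicate 3 was the high one for Hist1h2bb (212 RPKM), Hist1h2bm (196.1 RPKM), Hist1h2bf (72.6 RPKM), Hist2h2be (36.5 RPKM), Hist2h2bb (32.3 RPKM) and the sum of all H2B genes (577 RPKM). Replicate 1 was the high one for Hist1h1c (33.2 RPKM) and the sum of all H1 genes (35.9 RPKM). In the SOX10 low group replicate 1 was the high one for Hist1h2bb (14.5 RPKM), Hist1h2bm (12.8 RPKM) and Hist1h2bf (4.50 RPKM). Of 48 groups of values examined 11 stood out in this way, where chance gives about 1 in 20 for independent values. The 11 are not independent, since the same libraries recur and the sums hold genes flagged beside them. No excess over chance can be read from the count.

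Hist2h2be had opposite directions in the tumour models. Its log2 difference between SOX10 high and low cells was 3.06 in C3-1-TAg cells and -1.34 in PY230 luminal cells, with every library of each group on its side. The PY230 difference was not called. In C3-1-TAg the gene passed the filter only through the SOX10 high libraries, and its call was lost without some single libraries. The difference between the models was not tested.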

How the results depend on the processing

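Of 479 alternatives for 51 named results, 380 kept direction and call, 99 lost the call and 0 reversed. Counts of histone genes called moved by over 1.5 times as follows. Without the filter they were 2 (basal against luminal progenitor), 6 (mature luminal against luminal progenitor), 0 (PY230 luminal SOX10 high against low), 4 (PY230 basal SOX10 high against luminal SOX10 low) and 0 (C3-1-TAg). With quantile scaling they were 7 (basal against luminal progenitor), 25 (basal against mature luminal) and 7 (PY230 luminal). A pseudocount of 0.1 gave 1 (PY230 luminal) and 2 (C3-1-TAg), and the C3-1-TAg values as deposited gave 3. Leaving out one library gave 16 to 52, 15 to 40 and 16 to 35 for fMaSC against basal, luminal progenitor and mature luminal cells, 1 to 14 for basal against luminal progenitor, 7 to 22 for basal against mature luminal and 6 to 7 for mature luminal against luminal progenitor. It gave 0 to 7, 1 to 3 and 4 to 8 in PY230 (luminal high against low, basal against luminal high, basal against luminal low) and 0 to 5 in C3-1-TAg; a lone library is assumed to vary like the other groups. Quantile scaling changed the share of higher genes among all called from 61.1% to 49.4% (fMaSC against basal), with 37 histone genes higher and 0 lower, from 70.3% to 49.6% (against luminal progenitors), with 33 and 1, and from 73.9% to 50.8% (against mature luminal cells), with 27 and 12.

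Correlations of same-numbered libraries ran from -0.337 to 0.295, and were over 0.1 for some pairs of groups only. The numbers were thus not taken to pair the libraries. In C3-1-TAg a pairing across different numbers was not tested, and the fit took the libraries as unpaired. Trp63 was at 31.9 RPKM in SOX10 high replicate 2 and 16.4 in SOX10 low replicate 3, and at most 2.47 in the other C3-1-TAg libraries. The replicate block goes by the numbers, so it does not show the effect of another pairing. With it the counts were 45, 44, 45, 5, 19 and 12 in the normal table (order as above), 6, 3 and 9 in PY230 and 0 in C3-1-TAg. Crossing the numbers of the PY230 luminal SOX10 low libraries, a pairing chosen after seeing the data, gave 8 calls for luminal high against low. The cause of these shifts was not tested, except that fewer genes were tested without a fMaSC library.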
